A study of Mus musculus with 12 samples.

Results

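The tailbud and axial progenitor genes are 10 mouse genes of the primitive streak, the tailbud and the caudal homeobox family, namely Wnt3a, Wnt5b, Tbx6, Msgn1, Cdx1, Cdx2, Cdx4, Evx1, Nkx1-2 and Sp5. Their members were chosen by gene symbol, as every probe of the array that the platform annotation assigns to one of these names. The rule found 12 probes for 9 genes among 45281 probes, and all 12 passed the filter on low signals that left 19595 probes of 10764 genes for testing. Tbx6, Cdx1 and Nkx1-2 had 2 probes each, and Msgn1, a helix-loop-helix factor of presomitic mesoderm, was not analysed here because none of the annotated probes carried its symbol.

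Transcripts were measured in 12 whole embryos at 8.5 days post coitum, each on 1 array of an Illumina mouse BeadChip, in a design that crossed loss of Cited2 with the diet of the mother. Cited2 encodes a nuclear protein that works through the co-activators CBP and p300 and has no DNA-binding domain of its own. The 4 groups held 3 embryos each: Cited2 -/- (knockout) embryos of high-fat mothers, knockout embryos of control-diet mothers, wild-type embryos of high-fat mothers and wild-type embryos of control-diet mothers. All were of the C57BL6/J strain. Every mother was heterozygous for Cited2, and so was every father, so the wild-type embryos also developed in a heterozygous mother. Mothers were placed on a formulated high-fat or control diet at 6 weeks of age, were mated after 8 weeks on it and stayed on it while pregnant. The labels give the knockout with no restriction to a tissue, and the yolk sac and allantois had been dissected away before RNA was isolated. Somites had been counted to match stages (counts not given in the sources used here).

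In the mouse embryo of this stage the trunk is laid down from head to tail by progenitors in the caudal epiblast and the streak, which later form the tailbud. Wnt signals, with Wnt3a as a main ligand, hold these cells in a dividing, uncommitted state, Tbx6 and Msgn1 move them into presomitic mesoderm, and Cdx factors keep the posterior end growing and switch on posterior Hox genes. Nkx1-2 marks the bipotent cells that give both spinal cord and mesoderm, and Sp5 is a direct target of beta-catenin.

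The promoters of 4 members are shown. The 2 highest correlations over embryos between different members joined Tbx6, at its probe ILMN_2660916 only, to Wnt3a and Wnt3a to Evx1. Sp5, the Wnt target, is added for its LEF/TCF letters. Each line holds the 250 bases before the annotated start, 5′ to 3′ on the gene's own strand, from RefSeq on build GRCm38.p6. Windows were taken for 9 of the 10 members. Cdx1 had none here because the entries of its chromosome were left out of the member search, so its promoter was not read. Capitals mark letters searched on both strands, namely CTTTGA or CTTTGT (the core bound by LEF and TCF, the partners of beta-catenin), AGGTGT (T-box factors) and TTTATG (CDX factors). No 2 marked matches overlap.
Tbx6 (chr7:126781233-126781482, plus strand): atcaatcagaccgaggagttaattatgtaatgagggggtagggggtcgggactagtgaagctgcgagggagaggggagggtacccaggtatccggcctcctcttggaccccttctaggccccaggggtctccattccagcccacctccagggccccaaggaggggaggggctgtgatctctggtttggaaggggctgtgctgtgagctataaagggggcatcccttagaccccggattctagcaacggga
Wnt3a (chr11:59290752-59291001, minus strand): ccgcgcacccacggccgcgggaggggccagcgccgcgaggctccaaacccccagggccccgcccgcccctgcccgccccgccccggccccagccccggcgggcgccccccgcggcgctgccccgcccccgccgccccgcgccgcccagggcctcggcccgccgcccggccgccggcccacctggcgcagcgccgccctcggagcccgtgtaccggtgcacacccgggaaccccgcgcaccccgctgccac
Evx1 (chr6:52313248-52313497, plus strand): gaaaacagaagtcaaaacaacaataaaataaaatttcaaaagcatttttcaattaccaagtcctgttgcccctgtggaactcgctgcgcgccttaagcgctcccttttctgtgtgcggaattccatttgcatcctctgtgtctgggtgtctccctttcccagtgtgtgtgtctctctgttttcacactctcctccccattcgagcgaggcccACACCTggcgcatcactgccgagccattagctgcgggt
Sp5 (chr2:70474673-70474922, plus strand): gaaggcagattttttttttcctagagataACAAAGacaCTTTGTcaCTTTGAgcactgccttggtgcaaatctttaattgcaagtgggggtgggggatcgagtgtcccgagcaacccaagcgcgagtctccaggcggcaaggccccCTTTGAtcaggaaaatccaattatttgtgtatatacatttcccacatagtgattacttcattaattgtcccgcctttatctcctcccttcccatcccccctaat
Sp5 held 4 LEF/TCF matches, and 27.6% of all 32851 promoter windows in the table held at least 1. Evx1 and Cdx4 held 1 T-box match each, against 11.8% of windows with any, and none of the printed windows held the CDX letters, which occurred in 10.8% of windows. The window of Msgn1, which has no probe here, held 3 LEF/TCF matches and 1 CDX match. The Tbx6, Wnt3a, Cdx2 and Nkx1-2 windows held none of the 3 motifs. Wnt5b had 3 annotated starts, 1 of which held a match of each motif. A match is a description of letters and not a measured binding site.

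Between 36.6% and 41.6% of probes were detected per array, at a detection p-value under 0.01. Cited2 itself was lower in knockout embryos at all 3 of its tested probes, with log2 differences of -6.41 to -3.76, and was detected in at most 1 of 6 knockout and in 6 of 6 wild-type embryos. By the variation between beads of a probe (median coefficient 18.0% to 20.5% against 21.4% to 23.8%) the arrays split into sets A and B of 6 each. Set A comprised the 4 embryos numbered 1 and the high-fat embryos numbered 2, and set B the remaining 6. No source describes the sets as batches. Of the 6 high-fat embryos 4 were in set A, so diet and array set were partly joined, and results below are also given by set or with the set as a block. Set A held 1 control-diet embryo of each genotype and set B 1 high-fat embryo of each genotype. Differences within a set are therefore descriptions given without an error. The labels mark replicates as separate embryos, and shared litters are not stated. A number in the sample titles links the embryos in pairs. Within a diet, the number of any knockout embryo recurs in the title of 1 wild-type embryo. Whether this title number marks a mother or a litter is not stated. If it does, the diet comparison rests on fewer independent units than embryos. The main model below takes all 12 embryos as independent, so its errors and p-values for diet could then be too small.

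No tailbud probe passed an adjusted p of 0.05 in any of the 7 comparisons, which were genotype, diet, each of them within each level of the other, and their interaction. High-fat embryos had higher values than control-diet embryos at 9 of 12 probes (55.3% of all tested probes did), and 6 of these, from Tbx6, Wnt3a, Cdx1, Cdx2 and Evx1, reached an unadjusted p under 0.05 (6.95% of all tested probes did, upward) with fold differences of 1.21 to 1.64. Knockout embryos had lower values than wild-type embryos at 7 of 12 probes (50.1% of all tested probes did). Fold differences by genotype ran from 0.81 to 1.25 over all 12 probes, and 1 Tbx6 probe reached an unadjusted p under 0.05 (1.79% of all tested probes did, downward). Since whole embryos were measured, fewer cells of a type and less RNA per cell cannot be told apart for any of these genes. All levels below are normalized log2 signals, all differences are log2 fold changes of the first group named over the other, and errors are standard errors of a linear model fitted with limma to all 12 embryos.

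**Figure D1:**
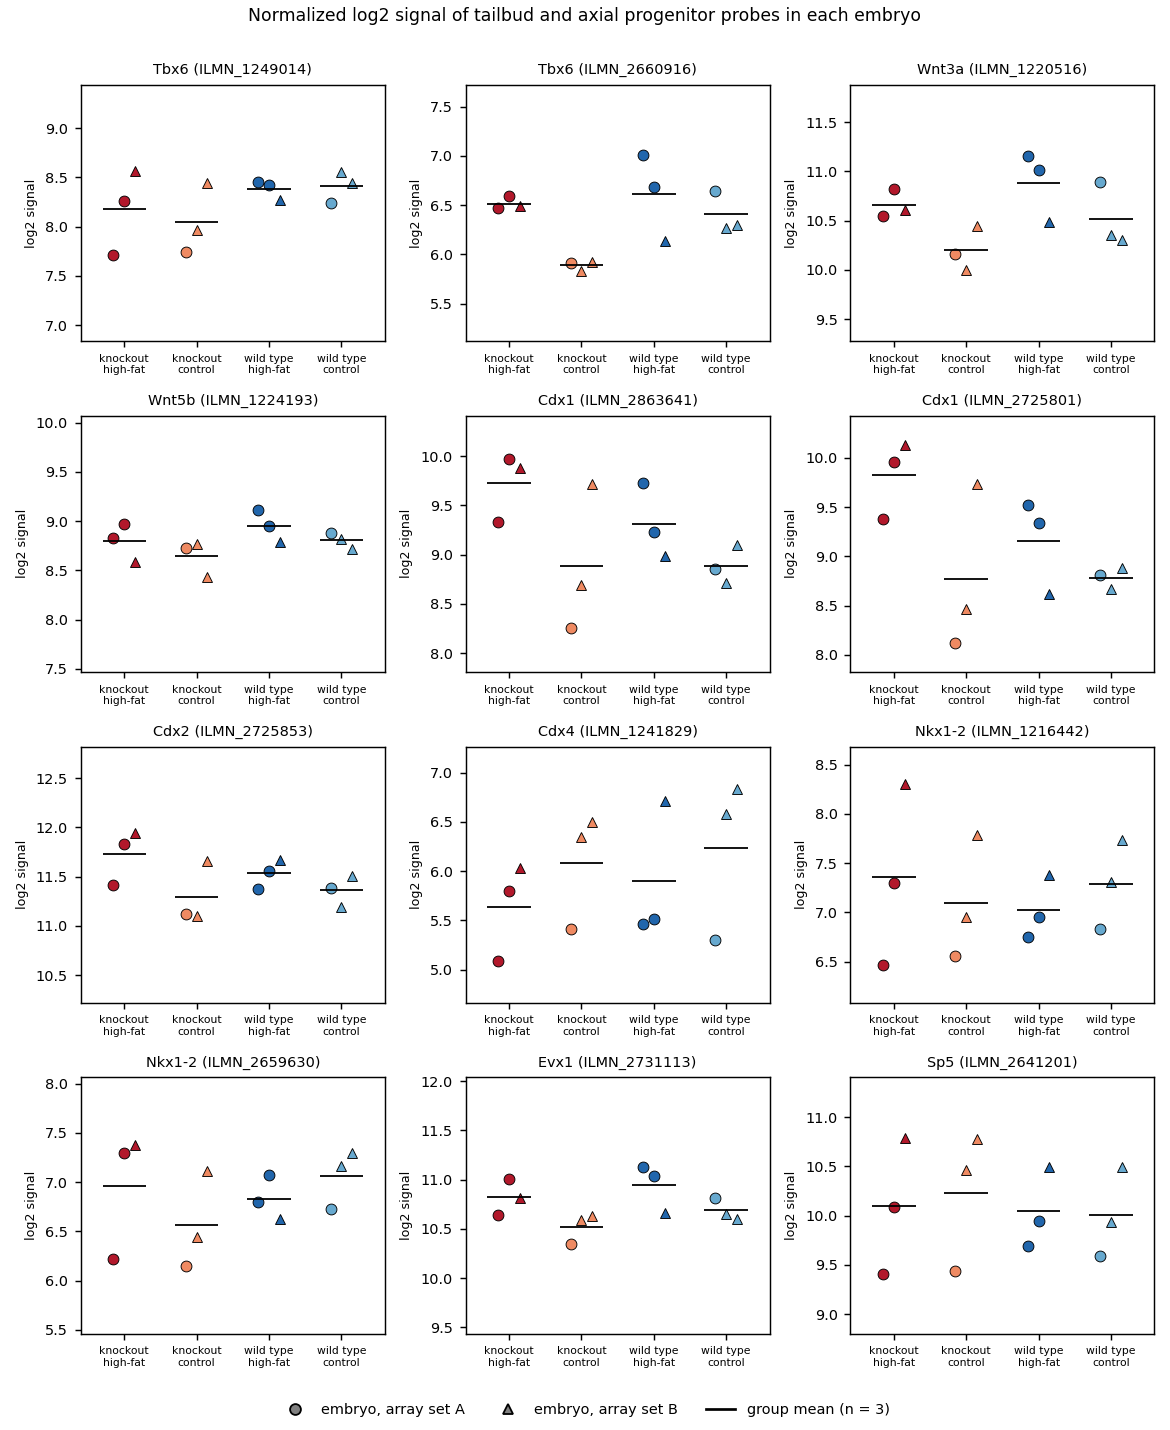
Normalized log2 signal (vertical axes, which span the same number of log2 units in each panel) of the 12 probes in each embryo, by genotype and maternal diet (horizontal axes). Circles are embryos of array set A, triangles embryos of array set B, and bars are group means of 3 embryos. Tbx6 (ILMN_2660916) lay between 5.83 and 5.92 in knockout control embryos, below the other 9 embryos, and Cdx4 lay higher in every set B embryo than in every set A embryo.

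Wnt3a and Wnt5b are the secreted ligands among the members. Wnt3a, which the streak and tailbud need for axis elongation, had log2 signals of 10.55, 10.82 and 10.60 in knockout high-fat embryos and 10.16, 10.00 and 10.44 in knockout control embryos. Its log2 signals were 11.15, 11.01 and 10.48 in wild-type high-fat embryos and 10.89, 10.36 and 10.31 in wild-type control embryos. Its lowest values were those of all 3 knockout control embryos and of wild-type control replicates 2 and 3. The knockout groups of the 2 diets did not overlap, while the wild-type groups did. High-fat embryos exceeded control-diet embryos by 0.41 ± 0.15 (95% interval 0.08 to 0.73), with an adjusted p of 0.410. The difference was 0.35 within array set A and 0.27 within array set B. By genotype, knockout minus wild type was -0.27 ± 0.15 (adjusted p 1.00), which came to -0.57 within set A and 0.01 within set B.

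Wnt5b, a ligand of the streak and tailbud mesoderm that acts mostly outside the beta-catenin branch, had the narrowest spread over embryos of the 12 probes. Its log2 signals were 8.83, 8.97 and 8.58 in knockout high-fat embryos and 8.73, 8.77 and 8.43 in knockout control embryos. They were 9.11, 8.95 and 8.79 in wild-type high-fat embryos and 8.88, 8.82 and 8.72 in wild-type control embryos. The groups of the 2 genotypes overlapped within each diet, as did the groups of the 2 diets within each genotype. Knockout minus wild type was -0.16 ± 0.11, and high-fat minus control diet was 0.15 ± 0.11, with adjusted p-values of 1.00 and 0.507.

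Tbx6, the T-box factor that commits progenitors to paraxial mesoderm, was read by 2 probes that did not give the same profile. Probe ILMN_2660916 had log2 signals of 6.47, 6.59 and 6.49 in knockout high-fat embryos and 5.91, 5.83 and 5.92 in knockout control embryos. It had 7.01, 6.69 and 6.14 in wild-type high-fat embryos and 6.65, 6.27 and 6.30 in wild-type control embryos. The knockout control embryos were thus the lowest of all 12, and they overlapped neither the knockout high-fat nor the wild-type control group. This probe was detected in all 12 embryos but was dim, with deposited signals of 36.7 to 90.8. Those of the other Tbx6 probe were 134.9 to 443.1, and those of Cdx4, described below as close to background, were 13.3 to 117.8. Knockout high-fat embryos exceeded knockout control embryos by 0.63 ± 0.20 (95% interval 0.20 to 1.05, adjusted p 0.720), and knockout control embryos differed from wild-type control embryos by -0.52 ± 0.20 (-0.95 to -0.09, adjusted p 1.00). Averaged over diets the genotype difference was -0.31 ± 0.14, which came to -0.53 within set A and -0.03 within set B. Averaged over genotypes the diet difference was 0.42 ± 0.14 (adjusted p 0.407), with 0.41 within set A and 0.23 within set B. The diet effect in knockout embryos exceeded that in wild-type embryos by 0.42 ± 0.28 (interaction, adjusted p 1.00).

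The other Tbx6 probe, ILMN_1249014, had log2 signals of 7.71, 8.26 and 8.56 in knockout high-fat embryos and 7.74, 7.96 and 8.45 in knockout control embryos. It had 8.45, 8.42 and 8.27 in wild-type high-fat embryos and 8.24, 8.56 and 8.44 in wild-type control embryos. Knockout embryos spread over 0.36 (SD, n = 6) and wild-type embryos over 0.12 (SD, n = 6). Its diet difference was 0.05 ± 0.16 (adjusted p 0.898), and its genotype difference of -0.28 ± 0.16 was close to that of the first probe. The 2 probes had a Pearson correlation of 0.35 over the 12 embryos and of 0.79 after each array set's mean was taken off, since set B was higher than set A by 0.29 at ILMN_1249014 and lower by 0.29 at ILMN_2660916. The position of each probe on the transcript was not used here.

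The caudal homeobox genes Cdx1, Cdx2 and Cdx4 drive posterior growth and activate posterior Hox genes. Cdx1 had the highest diet difference of the members at both of its probes. Probe ILMN_2725801 had log2 signals of 9.38, 9.96 and 10.13 in knockout high-fat embryos and 8.12, 8.47 and 9.73 in knockout control embryos. It had 9.53, 9.34 and 8.62 in wild-type high-fat embryos and 8.81, 8.67 and 8.88 in wild-type control embryos. Replicate 3 of the knockout control group stood with the high-fat embryos, and without it the knockout groups would not overlap. High-fat minus control diet was 0.71 ± 0.26 (95% interval 0.14 to 1.29, adjusted p 0.410) at this probe and 0.63 ± 0.23 (0.12 to 1.14, adjusted p 0.410) at ILMN_2863641. Within array set A these came to 1.09 and 1.01, and within set B to 0.44 and 0.38.

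In knockout embryos alone the Cdx1 diet difference was 1.05 ± 0.37 at ILMN_2725801 and 0.84 ± 0.33 at ILMN_2863641, against 0.38 ± 0.37 and 0.42 ± 0.33 in wild-type embryos. The interaction was 0.68 ± 0.53 (adjusted p 1.00), so the diet effects of the 2 genotypes did not differ beyond their error. Without knockout control replicate 3 the knockout diet difference at ILMN_2725801 became 1.53 (adjusted p 0.164), the genotype difference on the control diet became -0.49 (-0.01 with it), and the interaction became 1.16. The genotype difference averaged over diets was 0.33 ± 0.26 and took opposite signs within sets, -0.22 in set A and 0.92 in set B.

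Cdx2 had log2 signals of 11.42, 11.83 and 11.94 in knockout high-fat embryos and 11.12, 11.10 and 11.65 in knockout control embryos. It had 11.38, 11.56 and 11.67 in wild-type high-fat embryos and 11.38, 11.19 and 11.51 in wild-type control embryos. Knockout control replicate 3 was again the highest of its group. High-fat minus control diet was 0.31 ± 0.13 (95% interval 0.01 to 0.60, adjusted p 0.417), with 0.29 within set A and 0.44 within set B. By genotype Cdx2 differed by 0.06 ± 0.13, an interval of -0.23 to 0.36.

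Cdx4, the X-linked member of the family, was measured close to background. It had log2 signals of 5.09, 5.80 and 6.03 in knockout high-fat embryos and 5.42, 6.35 and 6.50 in knockout control embryos, and the first of these was the only member value not detected (detection p 0.0414). It had 5.46, 5.52 and 6.71 in wild-type high-fat embryos and 5.31, 6.58 and 6.84 in wild-type control embryos. All 6 set B embryos exceeded all 6 set A embryos, by a mean within groups of 1.05. High-fat minus control diet was -0.40 ± 0.32 without regard to set and -0.04 ± 0.15 with the set as a block, and knockout minus wild type was -0.20 ± 0.32, or -0.20 ± 0.14 with that block.

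Evx1, an even-skipped homeobox factor of the posterior streak, had log2 signals of 10.64, 11.01 and 10.82 in knockout high-fat embryos and 10.35, 10.59 and 10.63 in knockout control embryos. It had 11.13, 11.04 and 10.66 in wild-type high-fat embryos and 10.82, 10.65 and 10.60 in wild-type control embryos. The knockout groups of the 2 diets lay next to each other without overlap. High-fat minus control diet was 0.28 ± 0.11 (95% interval 0.03 to 0.52, adjusted p 0.413), with 0.37 within set A and 0.12 within set B. Knockout minus wild type was -0.14 ± 0.11, which came to -0.36 within set A and 0.07 within set B.

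Nkx1-2, the homeobox gene of the bipotent progenitors, had log2 signals at probe ILMN_1216442 of 6.46, 7.30 and 8.30 in knockout high-fat embryos and 6.56, 6.96 and 7.79 in knockout control embryos. It had 6.75, 6.95 and 7.38 in wild-type high-fat embryos and 6.83, 7.31 and 7.73 in wild-type control embryos. The range inside each group exceeded every difference between group means. High-fat minus control diet was -0.004 ± 0.31 (95% interval -0.67 to 0.66) and became 0.28 ± 0.20 with the array set as a block. The second probe, ILMN_2659630, ranged from 6.14 to 7.38 over the embryos and had a diet difference of 0.08 ± 0.23. The lowest of its values were those of replicate 1 in both knockout groups, at 6.22 in the high-fat and 6.14 in the control-diet embryo. Its genotype difference on the control diet was -0.49 ± 0.32, an interval of -1.19 to 0.21.

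Sp5, the zinc finger factor whose promoter is printed above with its LEF/TCF matches, had log2 signals of 9.41, 10.09 and 10.79 in knockout high-fat embryos and 9.44, 10.47 and 10.78 in knockout control embryos. It had 9.70, 9.94 and 10.50 in wild-type high-fat embryos and 9.59, 9.93 and 10.50 in wild-type control embryos. All 4 groups overlapped over most of their range. The diet difference was -0.05 ± 0.29 (95% interval -0.67 to 0.58, adjusted p 0.946), or 0.25 ± 0.16 with the array set as a block, and the genotype difference was 0.14 ± 0.29. The interval for diet is wide enough to hold both 0 and the 0.41 found for Wnt3a.

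**Figure D2:**
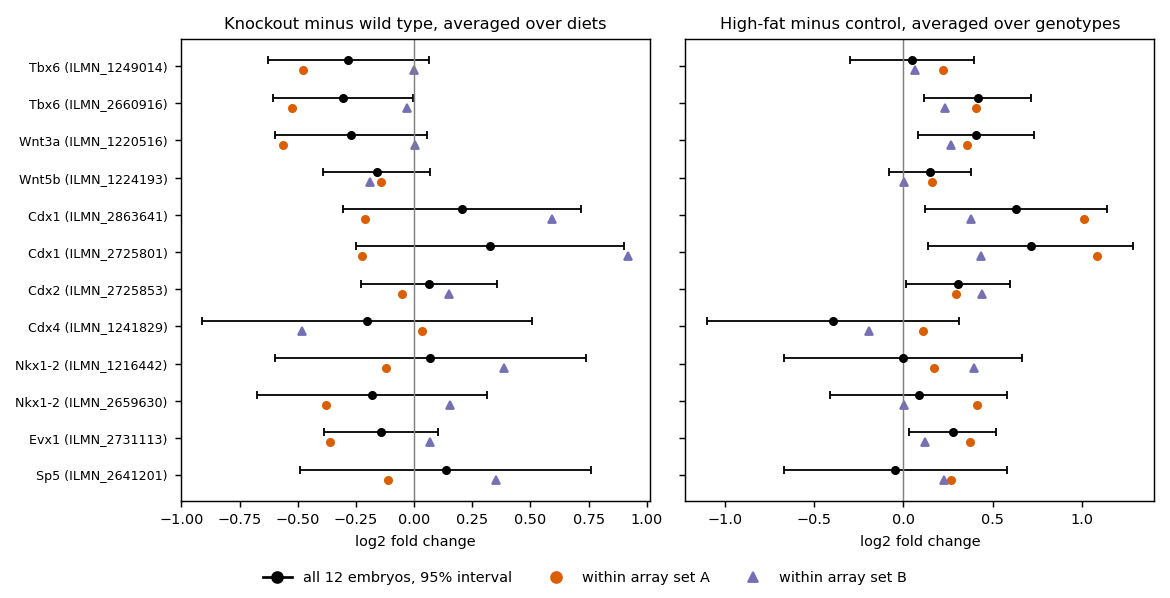
Log2 fold change (horizontal axes) of each of the 12 probes (rows) for knockout minus wild type averaged over diets (left) and high-fat minus control diet averaged over genotypes (right). Black points with bars give the estimate and 95% interval of the model over 12 embryos, circles and triangles the differences within array sets A and B. Values within a set carry no error, since some groups held 1 embryo in a set. On the right, the intervals of 6 probes of Tbx6, Wnt3a, Cdx1, Cdx2 and Evx1 lie above 0 and their values are positive within both sets, while on the left only 1 Tbx6 probe's interval leaves out 0.

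For the diet effect averaged over genotypes, by limma with Benjamini-Hochberg adjustment 0 of 12 member probes passed, as did 0% of all probes. At an unadjusted p under 0.05, 6 of 12 were higher and 0 lower, where 6.95% of all probes were higher and 4.86% lower (11.8% in either direction). The 6 probes stand for 5 genes, and they came from the same 12 embryos, so they are not independent. The median of the 12 differences was 0.21, beside 0.03 over all tested probes. With array set as a block the count was again 6 higher, where 4.78% of all probes were, the median was 0.27, beside -0.0015 over all probes, and the lowest adjusted p was 0.429. None of the members separated the 6 high-fat from the 6 control-diet embryos completely, and 0.265% of all probes did so upward. Scaling arrays to a common median in place of quantile normalization moved the median of all probes to -0.09, and the 6 differences then ranged from 0.18 for Evx1 to 0.60 for Cdx1.

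Weighting the arrays by their estimated quality, an alternative to equal weights, gave another count for diet. Then 7 of 12 member probes passed an adjusted p of 0.05, as did 31.3% of all probes. Those higher were Tbx6 (ILMN_2660916), Wnt3a, both Cdx1 probes, Cdx2 and Evx1, with log2 differences of 0.36 to 0.85, and Cdx4 had a difference of -0.69. The estimated weights ran from 0.39 to 7.43, with the highest in wild-type high-fat replicate 2, and this embryo's part in the count was not tested. For diet within one genotype, weights let 1 of 12 member probes pass in knockout embryos, Tbx6 (ILMN_2660916), as 1.11% of all probes did, and 1 of 12 in wild-type embryos, Wnt3a, as 7.48% of all probes did. With weights and the array set as a block together, 0 member probes and 0% of all probes passed, but the estimation of the weights stopped before it converged in that fit.

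In knockout embryos 0 of 12 member probes passed for diet, as did 0% of all probes, and 4 were higher and 0 lower at an unadjusted p under 0.05, where 3.57% of all probes were higher and 6.15% reached it in either direction. The 4 were Tbx6 (ILMN_2660916), both Cdx1 probes and Cdx2. The difference was positive at 10 of 12 probes, where 54.4% of all were, with a median of 0.35, beside 0.03 over all probes. The high-fat and control-diet knockout embryos did not overlap at 3 of 12 probes, all higher, namely Tbx6 (ILMN_2660916), Wnt3a and Evx1, where 8.49% of all probes were separated upward. In wild-type embryos 0 of 12 passed, as did 0% of all probes, 0 reached an unadjusted p under 0.05, where 4.16% of all probes did, and 8 of 12 differences were positive, where 54.5% of all probes' were. The interaction, which tests whether diet acted differently in the 2 genotypes, passed for 0 of 12 probes, as for 0% of all. At an unadjusted p under 0.05 it held 0 members, where 1.26% of all probes reached it, and it was positive at 10 of 12 probes, where 49% were. A difference between genotypes in the response of these genes to diet was therefore not detectable with 3 embryos per group. The probes came from the same embryos, so the counts of positive differences are not counts of independent results.

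Between genotypes, averaged over diets, 0 of 12 member probes passed, where 0.0714% of all probes did, and 1 was lower at an unadjusted p under 0.05, where 1.79% of all were lower and 3.35% reached it in either direction. The median difference was -0.15, beside -0.00045 over all tested probes, and it was -0.22 within set A and 0.11 within set B. On the control diet 11 of 12 differences were negative, where 49.4% of all probes' were. Those of Cdx1 were close to 0, at -0.012 (ILMN_2725801) and -0.002 (ILMN_2863641), and probes read in the same embryos are not independent. There 0 of 12 passed, where 0.0408% of all did, and only Tbx6 (ILMN_2660916) reached an unadjusted p under 0.05, downward, where 0.985% of all did and 1.62% did in either direction. It was also the only member whose knockout and wild-type embryos did not overlap on that diet, where 2.78% of all probes were separated downward. On the high-fat diet 0 of 12 passed, where 0.0153% of all did, 0 reached an unadjusted p under 0.05, where 3.38% of all did, and 6 of 12 differences were negative, where 49% of all were.

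**Figure D3:**
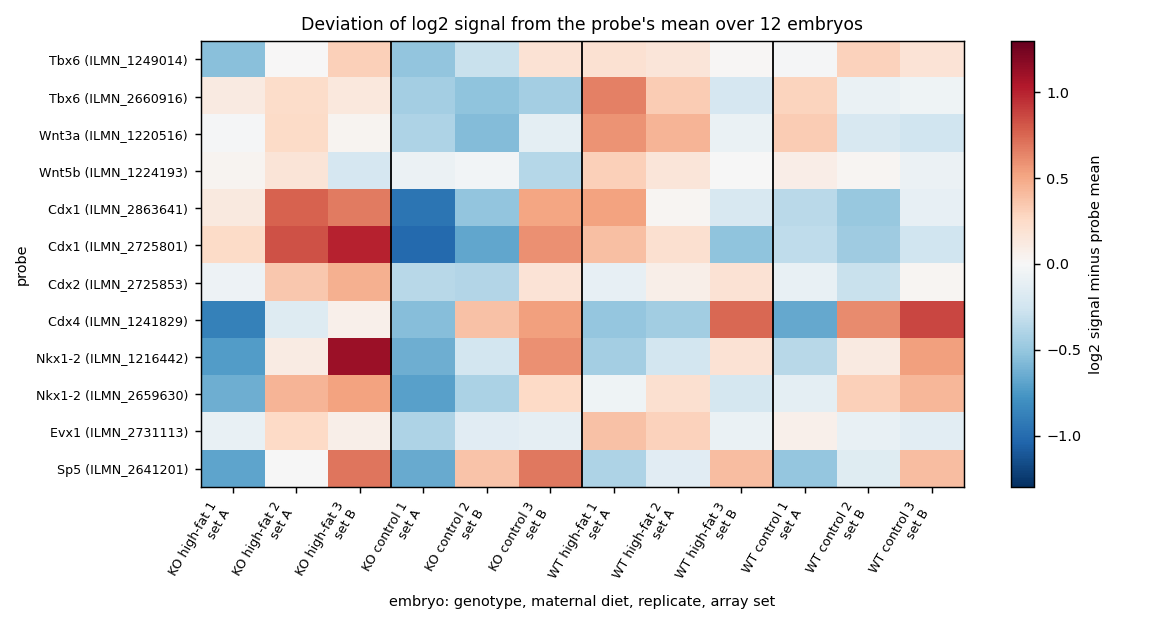
Log2 signal of each probe (rows) minus its mean over the 12 embryos, in colour from blue (below the mean) to red (above it), by embryo (columns, ordered by genotype and maternal diet and named with replicate and array set; KO, knockout; WT, wild type). Cdx1 has the widest contrast between knockout high-fat and knockout control embryos. Cdx4, Nkx1-2 at ILMN_1216442 and Sp5 have their low values mainly in set A embryos.

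The members formed patterns over the embryos that differed in how far they followed the array sets. Set B minus set A, taken within groups, was 1.05 for Cdx4, 0.88 for Sp5 and 0.86 for Nkx1-2 (ILMN_1216442), beside a median of -0.10 over all probes with a 5th percentile of -0.39 and a 95th percentile of 0.86. For Wnt3a it was -0.29, for Evx1 -0.09 and for Wnt5b -0.20. Tbx6 (ILMN_2660916) and Wnt3a had a Pearson correlation of 0.92 over the 12 embryos, or 0.88 after each set's mean was taken off, and Wnt3a and Evx1 had 0.90 by both measures. The brighter Tbx6 probe, ILMN_1249014, had 0.39 with Wnt3a and 0.51 with Evx1, or 0.88 and 0.81 with set means taken off. Cdx1 (ILMN_2725801) and Cdx2 had 0.80, or 0.82 with set means taken off. Cdx4 and Sp5 had 0.79, which became 0.13 once set means were taken off, whereas Nkx1-2 (ILMN_1216442) and Sp5 had 0.88, or 0.72 with set means taken off. Sp5 had -0.29 with Wnt3a and -0.05 with Evx1, which became 0.46 and 0.55 with set means taken off. The lowest value was -0.63, between Wnt5b and Sp5, and it was -0.18 with set means taken off. These correlations describe 12 embryos that share arrays of 2 sets, 2 genotypes and 2 diets.

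**Figure D4:**
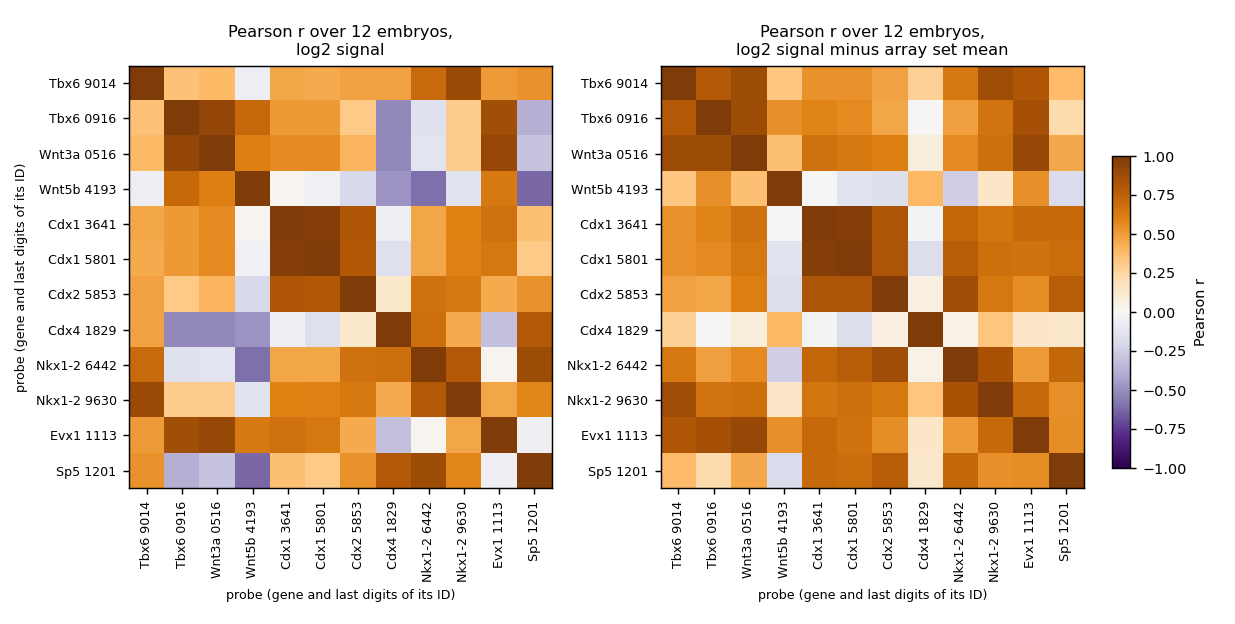
Pearson correlation over 12 embryos between each pair of the 12 probes (rows and columns, named by gene and the end of the probe number), from log2 signals (left) and after each array set's mean was subtracted (right), in colour from purple (-1) to brown (1). Tbx6 (ILMN_2660916), Wnt3a and Evx1 form a block in both panels, and the link of Cdx4 to Sp5 is seen on the left (0.79) and is weak on the right (0.13).

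Of all named genes, those with the profile most like a member over the 12 embryos lay mostly outside the members. Wnt3a was closest to Slc32a1, a vesicular transporter of inhibitory transmitters (Pearson correlation 0.95), and Evx1 to Tmem266 (0.91), with Wnt3a next at 0.90. Tbx6, taken at its brighter probe ILMN_1249014, was closest to Cd82 (0.85), Wnt5b to Fchsd1 (0.92), Cdx1 to Pid1 (0.94) and Cdx2 to Slc8b1 (0.87). Cdx4 was closest to Eif4enif1 (0.97), a value that became 0.78 after set means were taken off. Nkx1-2 was closest to Grsf1 (0.96) and Sp5 to Dpp7 (0.97), which stayed at 0.93 for both with set means taken off. Each is the highest correlation among all tested named genes, and Evx1 with Wnt3a was the only pair of members among the first or second places.

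Among genes that act with the members, 113 were listed in 8 groups, 109 had a probe and 85 were tested, and 1 passed in any comparison. That gene was Meox1, a homeobox factor of the somites that the tailbud gives rise to, which averaged 9.68 ± 0.14 in knockout embryos and 10.36 ± 0.14 in wild-type embryos (SD, n = 6 each). It fell by 0.69 ± 0.10 in knockout embryos (adjusted p 0.0211), -0.61 within set A and -0.74 within set B. For genotype averaged over diets, 3 of all 10764 genes passed higher and 6 lower. All 6 tested somite genes had negative genotype differences, 5 of them at an unadjusted p under 0.05, where 49.5% of all 10764 genes were negative and 2.04% were lower at that p. The lowest was Uncx at -0.96 ± 0.15 (adjusted p 0.0607). With the array set as a block 3 of the 6 passed, Uncx among them (adjusted p 0.0191), as did 0.138% of all tested probes. The 10 tested genes of the presomitic mesoderm, which lies between tailbud and somites, had a median genotype difference of -0.04 and 0 at an unadjusted p under 0.05.

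None of the genes listed for the signals that maintain the tailbud passed for diet. Of 22 tested genes of the Wnt pathway, 20 had positive diet differences with a median of 0.18, beside 0.05 over all 10764 genes, and 6 were higher and 0 lower at an unadjusted p under 0.05. Of all genes 59.8% had positive diet differences, 8.47% were higher at that p and 4.04% lower. Fzd10, a Wnt receptor, was the highest with 0.43 ± 0.12 (adjusted p 0.401). Of 8 tested readouts of FGF signalling, 5 were higher and 0 lower at an unadjusted p under 0.05 (8.47% and 4.04% of all genes), with a median of 0.30, and Etv4, an ETS factor induced by FGF, stood at 0.53 ± 0.16 (adjusted p 0.401). Of 17 other streak and tailbud regulators, 10 had positive and 7 negative diet differences, and 5 were higher and 0 lower at an unadjusted p under 0.05 (8.47% and 4.04% of all genes). Their median was 0.14, or 0.05 with the array set as a block, and the highest was Wnt8a, a ligand of the streak, at 1.47 ± 0.46 (adjusted p 0.401). Fgf8, the FGF ligand of the streak and tailbud, differed by -0.39 ± 0.12 in knockout against wild-type embryos (adjusted p 0.966), -0.44 within set A and -0.37 within set B.

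Retinoic acid is known to oppose the tailbud programme, and Cdx factors switch on posterior Hox genes. The 6 tested retinoic acid genes had 3 positive and 3 negative diet differences, with a median of 0.02. At an unadjusted p under 0.05, 1 was higher and 2 were lower (8.47% and 4.04% of all genes). The highest was Rarg, a retinoic acid receptor, at 0.40 ± 0.10 (adjusted p 0.401). Rarg was higher in all 6 high-fat embryos (7.44 to 7.91) than in any control-diet embryo (7.07 to 7.37), as were 0.265% of all probes. The lowest was Crabp1, a retinoic acid binding protein, with a diet difference of -0.69 ± 0.12 (adjusted p 0.309), -0.63 within set A and -0.58 within set B. The 10 tested posterior Hox genes had a median diet difference of -0.36, with 6 negative and 4 positive, and 3 lower and 1 higher at an unadjusted p under 0.05 (4.04% and 8.47% of all genes). Their median diet difference was -0.71 in knockout embryos and 0.01 in wild-type embryos, or -0.47 and -0.09 with the array set as a block. The median of their interactions was -0.19, and 0 of them passed for the interaction, as did 0% of all probes. Hoxa9, a target of Cdx factors, differed by -0.76 ± 0.28 between diets and by -0.95 ± 0.28 between genotypes, with adjusted p-values of 0.410 and 0.954. The 6 tested neural tube genes had a median diet difference of -0.12 and a median genotype difference of -0.03.

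Markers of neighbouring tissues were read beside these values. Of 10 yolk sac endoderm markers 9 were detected on some array, Afp on none, and their signals, summed on the linear scale as deposited, came to 5780.2 to 31052.1 in knockout high-fat, 6098.6 to 22429.8 in knockout control, 5794.5 to 13198.6 in wild-type high-fat and 4433.4 to 11189.5 in wild-type control embryos. The 2 highest sums were those of replicate 3 of each knockout group. These embryos also had the 2 highest values of Sp5 and of Nkx1-2 (ILMN_1216442), and were among the 4 highest for Cdx1 and Cdx2. Without both embryos 0 member probes passed in any comparison and the same number, 6, was higher for diet at an unadjusted p under 0.05, where 5.9% of all probes were. At that unadjusted p, leaving them out gave 3 members for genotype on the control diet, all lower (1 with them). There 2.39% of all probes reached it in either direction, and 0.985% did so upward. Leaving them out gave 5 for diet in knockout embryos, all higher (4 with them), where 4.22% of all probes were higher and 7.3% reached it in either direction. For the interaction it gave 1 (0 with them), where 3.47% reached it in either direction. The Cdx1 diet difference at ILMN_2725801 was then 0.88 and the Tbx6 difference at ILMN_2660916 was 0.43. Of 6 allantois markers 4 were detected, with sums of 474.6 to 870.8 in knockout high-fat, 407.7 to 570.3 in knockout control, 436.3 to 479.7 in wild-type high-fat and 361.3 to 600.1 in wild-type control embryos. Of 5 primitive erythroid markers on the array 4 were detected on some array, Gata1 on none, with sums of 531.3 to 10394.8 in knockout high-fat, 202.5 to 2034 in knockout control, 553.9 to 8256.8 in wild-type high-fat and 234.7 to 7621.2 in wild-type control embryos. All 4 groups overlapped in these sums, and the highest was that of knockout high-fat replicate 3. Sums of 4 trophoblast and decidua markers were at most 273.9, with Tpbpa detected in no embryo. The part of these tissues in the members' values was not tested beyond this.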

How the data were processed

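RNA of 12 embryos was read on 12 arrays in 1 colour. The authors deposited, per probe, an average signal, an intensity on a linear scale that can be negative, exported from BeadStudio 3.2.6, per the submitters' processing notes. Its detection p-value against negative control beads was deposited beside it, and in the single-array tables as a fraction equal to 1 minus that p-value. A count of beads for each probe was deposited too, per the file headers. The authors' own processed table held log2 values whose scale and direction were settled by a rank correlation of 1 with each array's signal. Its column medians ran from 4.97 to 5.03, and its normalization method is not stated there. It entered as an alternative. Columns that belong to samples of another series came to 0.

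The neqc steps of limma 3.58.1 in R 4.3.3 (normexp background correction from detection p-values, an offset of 16, quantile normalization) were applied to the signals. Probes with a detection p under 0.01 on at least 3 of 12 arrays were tested. Of all probes, 34885 had 1 gene symbol in the platform annotation, 18 several and 10378 none. All 12 embryos entered a fit of the 4 group means by lmFit and eBayes, which gave 7 two-sided comparisons, adjusted over all tested probes by Benjamini-Hochberg with a threshold of 0.05. The script was tested on simulated data. The number of arrays limits the precision.

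Array sets were split at the widest gap in the median bead variation of probes with a signal over 500. Every member probe was named. Of the related lists, genes that passed and, per list, those with the highest and lowest averaged effects could be named, and for likeness the 2 genes with the highest correlation. Related genes and likeness used the brightest tested probe of a gene. The members and lists were chosen with earlier results of these data known. Alternatives were no background correction, median scaling, the authors' values, 2 other filters, array set and replicate blocks, array weights, a covariate of Y-linked signal and the omission of each embryo. Weights joined with the set block, and the omission of the 2 embryos highest in yolk sac markers, were added after seeing the data.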

Additional observations from a re-analysis of the deposited data

How the results depend on the processing

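In the 7 comparisons the count of member probes past the threshold was 0 under every alternative except array weights, which gave 7 for diet averaged over genotypes, 1 for diet in knockout embryos (Tbx6, ILMN_2660916, 0.69, adjusted p 0.0427) and 1 for diet in wild-type embryos (Wnt3a, 0.56, adjusted p 0.0440). Weighted fits called 31.3%, 1.11% and 7.48% of all probes there, and the cause was not tested. Leaving out each embryo in turn gave 0 to 0 member probes in each comparison, with a lowest adjusted p of 0.142. Of 2105 values of single member probes, 143 changed sign under an alternative, none of them past the threshold. Deviations from group means correlated above 0.1 in 2 of 6 pairs that share a title number (-0.53 to 0.37) and in 13 of 18 that share a label number (-0.26 to 0.68). They did so in 22 of 24 pairs that share an array set but not a title number (0.07 to 0.68). Label number and array set were partly joined, so a pairing by label number cannot be told apart from the set. With either number as a replicate block, 0 member probes passed, with a lowest adjusted p of 0.0756. Leaving out knockout control replicate 3 moved the Cdx1 differences as given above. With 3 embryos per group, differences as small as those of most members cannot be separated from their spread, and Cdx4 was read near background. Tbx6 (ILMN_2660916) also had low signals.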
